A study of Homo sapiens with 9 samples.

Results

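The 8 genes described here encode the subunits of the m6A writer complex: METTL3, METTL14, WTAP, VIRMA, RBM15, RBM15B, ZC3H13 and CBLL1. They were chosen by name, as the known subunits of this complex. All 8 were among the 16181 genes tested, of 56349 genes to which transcripts could be assigned. RNA was sequenced from nuclear and cytoplasmic fractions of HEK293 cells, a human embryonic kidney line, which had been given either a control siRNA or siRNAs to both WTAP and VIRMA. VIRMA, the human Virilizer, is called KIAA1429 in older annotations. Both arms received siRNA at 10 nM for 72 h, with a second transfection at 48 h, and no allele or drug distinguished them. The 9 samples comprised 3 control nuclear, 3 WTAP/VIRMA RNAi nuclear, 1 control cytoplasmic (replicate 2) and 2 WTAP/VIRMA RNAi cytoplasmic samples (replicates 1 and 2). Nothing in the labels says that same-group samples came from separate cultures, so p-values measure the spread between these samples, which may be technical.

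m6A is a methyl mark on adenosines inside mRNA that reader proteins bind and that can be erased. It is placed in the nucleus by a complex whose catalytic subunit is METTL3 and whose METTL14 subunit is needed for RNA binding and for the stability of the heterodimer. WTAP holds this heterodimer in nuclear speckles, VIRMA acts as a large scaffold that directs methylation towards the last exon, RBM15 and RBM15B bind RNA and bring the complex to its targets, and ZC3H13 and CBLL1 (Hakai) belong to the same accessory module. The data measure the RNA of each subunit in each fraction, not the protein or the methylation it makes.

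Total estimated counts per sample ranged from 11627403 to 19036141. At this depth 3 counts correspond to 0.19 to 0.303 counts per 1000000 matched counts (CPM), and such bounds cover counting error only. The single control cytoplasmic sample was the deepest, and its spread was taken from the other groups. The nuclear RNAs MALAT1, NEAT1 and KCNQ1OT1 were higher in the nuclear fractions of both arms, by 3.42, 3.36 and 2.13 on the log2 scale in control samples. MALAT1 reached 13.8 CPM in the control cytoplasmic sample and 6.46 and 5.47 CPM in the RNAi cytoplasmic samples. Its nuclear levels were 88.3 to 199 CPM, the lowest being control nuclear replicate 2. Mitochondrial MT-CO1 and MT-CYB were also higher in the nuclear fractions. MT-ND4 did not pass between fractions, at 0.24 in control samples (edgeR adjusted p = 0.67) and -0.29 after RNAi (edgeR adjusted p = 0.479). None of these 3 thus marked the cytoplasm here. Of 6 HEK293 markers, the 5 that were matched stood at 9.67 to 1447 CPM, and of 6 markers of other cell types the 5 matched stayed at or below 0.698 CPM. Levels are shares of the RNA of a fraction. Fewer cells and less RNA per cell cannot be told apart from them.

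**Figure D1:**
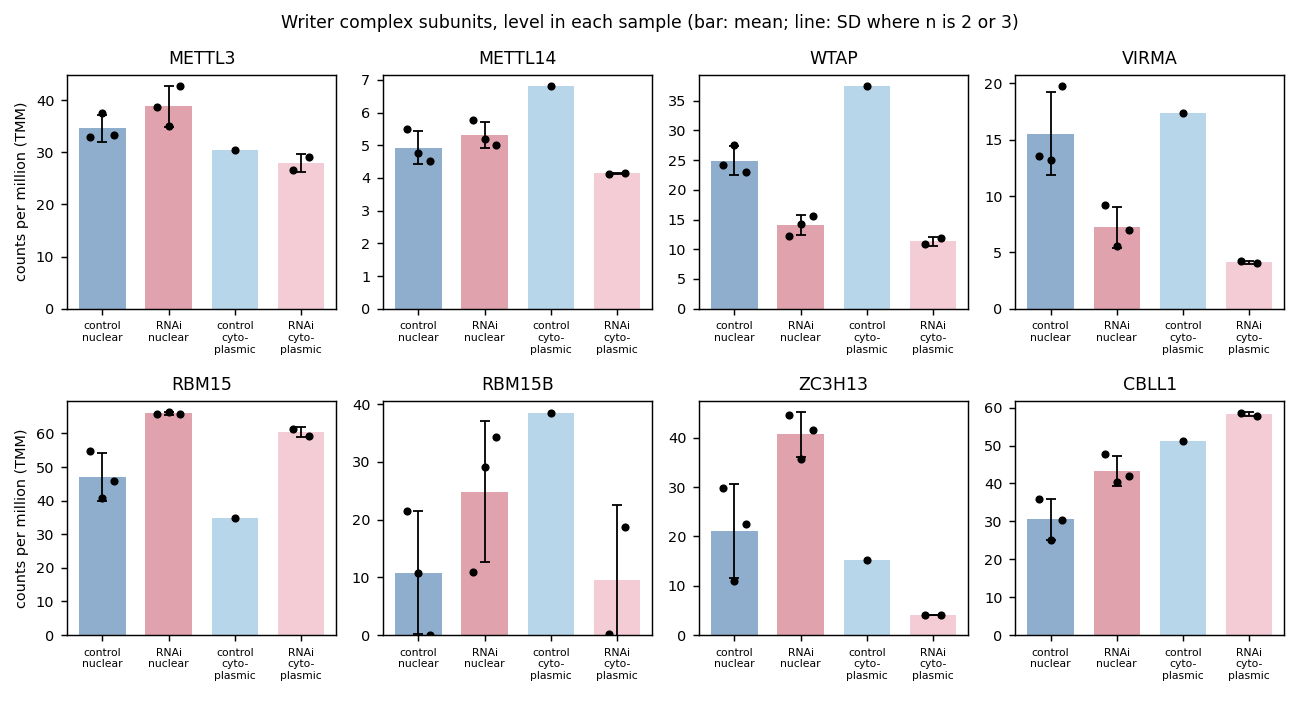
Level of each subunit in every sample, in TMM-scaled CPM, for the 4 groups; points are samples, bars are means and lines are SD. WTAP and VIRMA are lower after RNAi in both fractions, ZC3H13 is higher in the nucleus and lower in the cytoplasm, and the RBM15B points scatter from near 0 to 38.5.

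The targeted genes fell in both fractions. WTAP (chr6:160146617-160177351, plus strand, GRCh37) stood at 24.1, 27.6 and 23.0 CPM in control nuclear samples and at 12.2, 14.3 and 15.6 CPM after RNAi. Its cytoplasmic level was 37.5 CPM in the control sample and 10.8 and 11.9 CPM after RNAi. The nuclear groups did not overlap, and both cytoplasmic RNAi samples lay below the 1 control sample, the highest of all samples. WTAP fell by 0.83 on the log2 scale in the nucleus (SE 0.13, edgeR adjusted p = 0.0169), leaving 56.2% of the control level. In the cytoplasm it fell by 1.72 (SE 0.18, edgeR adjusted p = 0.00079), leaving 30.3%. The loss was deeper in the cytoplasm than in the nucleus, with a nuclear/cytoplasmic ratio raised by 0.89 (SE 0.23, edgeR adjusted p = 0.0326). With limma on log2(TPM + 1) or log2(TPM + 0.1) the nuclear values of -0.76 and -0.85 did not pass (adjusted p = 0.135 and 0.189).

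VIRMA (chr8:95499917-95565757, minus strand) fell in both fractions as well. It stood at 13.6, 13.2 and 19.8 CPM in control nuclear samples and at 9.18, 5.56 and 6.97 CPM after RNAi. In the cytoplasm the control sample held 17.4 CPM and the RNAi samples 4.21 and 4.04 CPM. Again the nuclear groups did not overlap, and both cytoplasmic RNAi samples lay below the 1 control sample. VIRMA fell by 1.08 in the nucleus (SE 0.21, edgeR adjusted p = 0.0314, 47.2% left) and by 2.07 in the cytoplasm (SE 0.31, edgeR adjusted p = 0.00268, 23.8% left). The nuclear call was lost when control nuclear replicate 3, RNAi nuclear replicate 2 or RNAi nuclear replicate 3 was left out, with the transcript length offset (-1.07, adjusted p = 0.121), and with limma. Over the 8 fits that left out 1 sample each, the nuclear value lay between -1.29 and -0.88. The ratio of VIRMA was 0.99 higher after RNAi, which did not pass the test (SE 0.38, edgeR adjusted p = 0.124, 95% interval 0.14 to 1.84). It passed without control nuclear replicate 3, without RNAi nuclear replicate 2, with at least 10 counts in every sample, with library size only and with no filter, at 1.00 to 1.26.

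Including the 2 targets, 4 of the 8 subunits passed the test in the nucleus, beside 4.89% of all genes tested. The test required a log2 fold change beyond 0.5 and a Benjamini-Hochberg adjusted p under 0.1. The 2 untargeted subunits that passed, ZC3H13 and CBLL1, were higher after RNAi, and 2.47% of all genes passed as higher and 2.42% as lower. In the cytoplasm 5 of 8 passed, beside 24.6% of all genes. Of these, WTAP, VIRMA, METTL14 and ZC3H13 were lower and RBM15 was higher, beside 14.2% lower and 10.4% higher over all genes. The nuclear/cytoplasmic ratio passed for 3 of 8, all of them raised, beside 18.2% of all genes in either direction, 10.4% raised and 7.87% lowered. These 3 comparisons share samples, so the counts are not independent of each other. The cytoplasmic and ratio values rest on the single control cytoplasmic sample, which could not be left out.

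**Figure D2:**
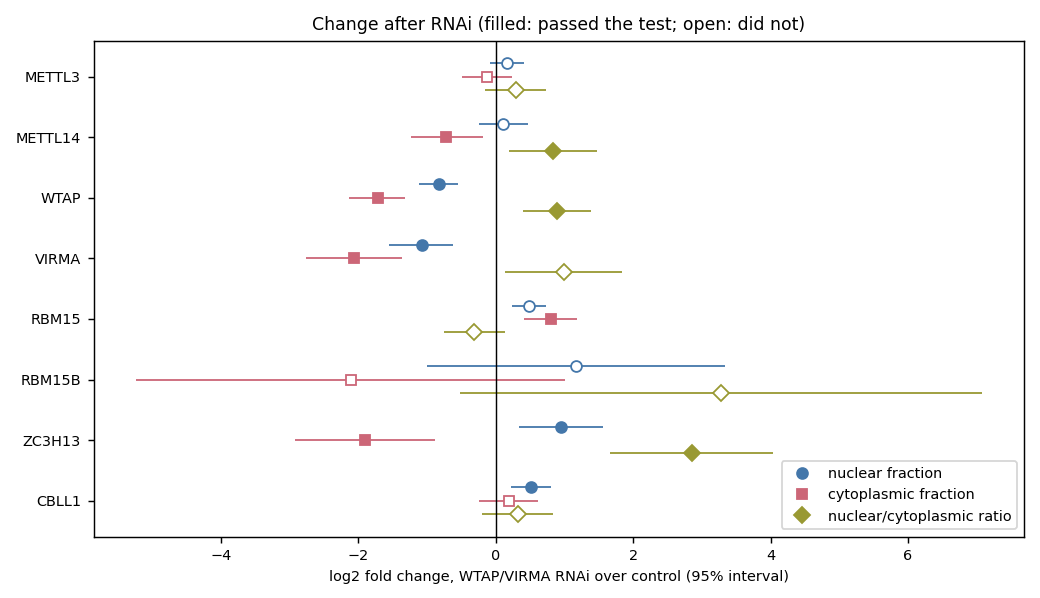
Log2 fold change of each subunit after RNAi in the nuclear fraction, the cytoplasmic fraction and the nuclear/cytoplasmic ratio, with 95% intervals; filled symbols passed the test. The intervals of WTAP and VIRMA lie below 0 in both fractions, those of METTL3 include 0, and RBM15B has intervals several units wide.

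METTL3 (chr14:21966277-21979484, minus strand), the catalytic subunit, did not pass the test in either fraction. Its nuclear levels were 32.9, 37.6 and 33.4 CPM in control and 38.7, 35.0 and 42.8 CPM after RNAi, and the groups overlapped. Its cytoplasmic levels were 30.5 CPM in the control sample against 26.7 and 29.2 CPM. The nuclear difference was 0.17 (95% interval -0.08 to 0.41) and the cytoplasmic one -0.13 (95% interval -0.49 to 0.24), so a change of the size seen for WTAP lay outside both intervals.

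METTL14 (chr4:119606547-119636588, plus strand), the partner of METTL3, passed the test in the cytoplasm and not in the nucleus. Its nuclear RNA stood at 5.49, 4.77 and 4.51 CPM in control nuclear samples and at 5.77, 5.19 and 5.01 CPM after RNAi, which overlapped. The cytoplasmic level was 6.82 CPM in the control sample and 4.13 and 4.15 CPM after RNAi. The nuclear difference of 0.11 did not pass (95% interval -0.25 to 0.47). METTL14 RNA fell by 0.72 in the cytoplasm (SE 0.24, edgeR adjusted p = 0.0573), leaving 60.8%, and its ratio rose by 0.83 (SE 0.29, edgeR adjusted p = 0.0907). The cytoplasmic call was lost without either RNAi cytoplasmic sample. The ratio call held in only 1 of 8 fits with a sample left out, that without control nuclear replicate 1, while its value stayed between 0.76 and 0.97. Neither call held in the DESeq2 Wald test (adjusted p = 0.191 and 0.254) or with the length offset (adjusted p = 0.444 and 0.448).

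RBM15 (chr1:110881128-110889303, plus strand), an RNA-binding adaptor of the complex, was higher in every RNAi sample than in the control samples of its fraction, of which the cytoplasm had 1. Nuclear levels were 54.8, 40.7 and 45.9 CPM in control and 65.7, 66.4 and 65.8 CPM after RNAi. Cytoplasmic levels were 34.7 CPM in the control sample and 61.4 and 59.3 CPM after RNAi. RBM15 rose by 0.80 in the cytoplasm (SE 0.17, edgeR adjusted p = 0.0114), or 1.74-fold, and with limma on log2(TPM + 1) it was 0.49 and did not pass (adjusted p = 0.258). The nuclear difference of 0.48 (SE 0.11, edgeR adjusted p = 0.0474) lay just under the fold limit. It lay at 0.50 to 0.61 and passed without control nuclear replicate 1, with at least 10 counts in every sample, with DESeq2 size factors, in the DESeq2 Wald test and with library size only. Across the other alternatives it lay at 0.39 to 0.56 and did not pass, either on the fold or on the adjusted p. The ratio did not pass, at -0.31 (95% interval -0.76 to 0.14).

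RBM15B (chr3:51428716-51435339, plus strand), the paralog of RBM15, could not be read as a level. It stood at 21.5, 10.8 and 0.0885 CPM in control nuclear samples, and at 11.0, 29.2 and 34.4 CPM after RNAi. Cytoplasmic values were 38.5 CPM in the control sample and 0.234 and 18.7 CPM after RNAi. The value thus moved from near the 3-count limit to 10.8 CPM or more within a group, from a single matched transcript of 6641 nt. Its differences did not pass, at 1.17 in the nucleus (SE 0.98) and -2.11 in the cytoplasm (SE 1.41). The gene overlaps DCAF1 on the opposite strand over 2042 nt.

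ZC3H13 (chr13:46528600-46626894, minus strand), a zinc finger subunit that anchors the accessory module in the nucleus, moved in opposite directions in the fractions. It stood at 29.8, 10.9 and 22.6 CPM in control nuclear samples and at 44.7, 35.8 and 41.7 CPM after RNAi. In the cytoplasm it stood at 15.3 CPM in the control sample and at 4.13 and 4.04 CPM after RNAi. The nuclear groups did not overlap, and both cytoplasmic RNAi samples lay below the 1 control sample. ZC3H13 rose by 0.95 in the nucleus (SE 0.27, edgeR adjusted p = 0.0839), or 1.93-fold, and fell by 1.90 in the cytoplasm (SE 0.46, edgeR adjusted p = 0.0178), to 26.8%. Its ratio rose by 2.85 (SE 0.54, edgeR adjusted p = 0.0105), or 7.2-fold, the largest ratio change among the subunits that passed. The ratio and the cytoplasmic fall passed in all 8 fits with a sample left out, the ratio at 2.53 to 3.25.

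The nuclear rise of ZC3H13 was less firm. It was called in 2 of those 8 fits, without control nuclear replicate 1 and without control nuclear replicate 2, at 1.30 and 0.63. In each of the other 6 the call was lost, with values of 0.88 to 1.04. In a fit of the 6 nuclear samples alone it was 0.94, with an edgeR adjusted p of 0.102. Control nuclear replicate 2, the lowest ZC3H13 sample of its group, was also the lowest in MALAT1. MALAT1 and KCNQ1OT1, which mark nuclear RNA, fell with ZC3H13 in the cytoplasm, by 1.20 (edgeR adjusted p = 0.0642) and 0.78 (edgeR adjusted p = 0.0559). NEAT1 and KCNQ1OT1 rose with ZC3H13 in the nucleus, by 0.52 (edgeR adjusted p = 0.0297) and 0.79 (edgeR adjusted p = 0.0233). In the cytoplasm NEAT1 stood at 13.0 CPM in the control sample and at 9.97 and 10.9 CPM after RNAi. The ratio of all 3 rose, by 1.33, 0.85 and 1.58 for MALAT1, NEAT1 and KCNQ1OT1. The part of this marker difference in the ratio changes of ZC3H13, WTAP and METTL14 was not tested.

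CBLL1 (chr7:107383518-107402112, plus strand), the RING finger subunit Hakai, stood at 35.9, 25.2 and 30.4 CPM in control nuclear samples and at 47.8, 40.3 and 42.0 CPM after RNAi. Its cytoplasmic level was 51.2 CPM in the control sample and 58.7 and 57.9 CPM after RNAi. CBLL1 rose by 0.51 in the nucleus (SE 0.13, edgeR adjusted p = 0.0638), just past the fold limit. The call held in 3 of 8 fits with a sample left out and was lost without control nuclear replicates 2 or 3 or any of RNAi nuclear replicates 1, 2 and 3, with values of 0.39 to 0.56 in those 5 fits. With the length offset it was 0.48 (edgeR adjusted p = 0.131). The cytoplasmic difference of 0.19 did not pass (95% interval -0.24 to 0.62).

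Nuclear RNAi samples stood apart from the control samples for RBM15, ZC3H13 and CBLL1 on the high side and for WTAP and VIRMA on the low side. Over all genes tested, 14.3% stood apart on the high side and 13.8% on the low side.

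The fractions were also compared within each arm. In control cells WTAP and CBLL1 were lower in the nucleus than in the cytoplasm, by -0.59 (SE 0.17, edgeR adjusted p = 0.0149) and -0.75 (SE 0.18, edgeR adjusted p = 0.00621). They were the 2 of 8 that passed, beside 50.8% of all genes in either direction and 22.7% lower in the nucleus. After RNAi 2 of 8 passed, beside 57.8% of all genes (32.9% higher and 24.9% lower in the nucleus), and both were higher in the nucleus: VIRMA by 0.82 (SE 0.27, edgeR adjusted p = 0.0227) and ZC3H13 by 3.31 (SE 0.38, edgeR adjusted p = 5.55e-05). ZC3H13 was thus 9.95-fold higher in the nuclear than in the cytoplasmic fraction after RNAi, against 1.38-fold in control cells, where it did not pass (95% interval -0.43 to 1.36 on the log2 scale). With the transcript length offset the VIRMA value was 0.71 and did not pass (edgeR adjusted p = 0.141). METTL3 after RNAi lay at 0.48 (edgeR adjusted p = 0.00772), just under the fold limit. WTAP after RNAi stood at 0.30 (95% interval -0.03 to 0.64).

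To compare the subunits with each other, levels were taken per transcript length, as TPM, the length-scaled transcript abundance that salmon gives. In control nuclei METTL3 was the highest, at 28.2 ± 3.28 TPM (SD, n = 3), followed by CBLL1 at 15.3 ± 1.27 and RBM15 at 13.6 ± 0.986, whose ranges overlapped. WTAP followed at 10.3 ± 2.0, apart from its neighbours. VIRMA at 5.5 ± 1.86 and ZC3H13 at 4.89 ± 1.42 overlapped, as did METTL14 at 2.02 ± 1.01 and RBM15B at 1.58 ± 1.47. METTL3 RNA lay far above METTL14 RNA in the control nuclei, at 25.4 to 31.8 TPM against 1.37 to 3.18 TPM. These levels sum all matched transcripts of a gene, coding or not. In control nuclei VIRMA-206, a retained-intron transcript of 574 nt, gave 0, 3.06 and 3.12 TPM of VIRMA, at 0, 14.7 and 13.0 counts. METTL14-202, a retained-intron transcript of 473 nt, gave 0.129, 1.63 and 0.222 TPM of METTL14, at 0.5, 5.7 and 0.7 counts. The levels of VIRMA and METTL14 thus rest in part on short transcripts with few counts. The full-length METTL3-201 alone stood at 3.33, 9.99 and 4.55 TPM in control nuclei, below CBLL1-201 at 15.1, 11.9 and 13.5 TPM. After RNAi nuclear ZC3H13, at 9.51 ± 0.386 TPM (SD, n = 3), stood above WTAP, at 5.7 ± 1.23 TPM, with no overlap. Of this ZC3H13 level, 3.85, 4.37 and 4.37 TPM came from the 695 nt retained-intron transcript ZC3H13-203, at 29.0, 21.0 and 29.2 counts. ZC3H13-201 stood at 2.96, 3.74 and 3.52 TPM and ZC3H13-202 at 2.67, 1.02 and 2.01 TPM, so the order depends on that short transcript. In the RNAi cytoplasm (n = 2) CBLL1 led at 23.4 ± 3.84 TPM, ahead of METTL3 at 16.3 ± 1.25 and RBM15 at 14.2 ± 1.93, the latter 2 overlapping. WTAP at 2.81 ± 0.309, METTL14, ZC3H13, VIRMA and RBM15B followed, each overlapping its neighbour.

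Among the transcripts that matched the annotation, 48 belonged to the 8 genes, and 28 of these passed the filter on low counts. Transcripts in the files without a match were not counted, so a share of the TPM of a gene is a share of its matched transcripts. The annotation gave WTAP, RBM15, ZC3H13 and VIRMA a short protein-coding form that does not splice at an exon end used by the long form but reads into the intron and ends there. Short and long refer here to the coding length. As a transcript, RBM15-203, at 3368 nt, is longer than RBM15-202, at 3316 nt. The sequences below, from GRCh37, show the 3 exon ends that can be printed here, because this is where the short form and the long one part. The forms of a gene can also differ elsewhere, as WTAP-201 and WTAP-202 do in their first exons. The last 20 bases before this exon end are in lower case, and the 10 bases that follow in each form are in capitals. The short form keeps its capital bases in its last exon, where the long form has an intron. In the long form the capitals are the next exon. The exon numbers are those of the long form.
WTAP-201 (chr6:160169382-160169411, plus strand, end of exon 6): tggaagtttacgcctgatagGTAAACAAAT
WTAP-202 (spliced to exon 7): tggaagtttacgcctgatagCCAAACAGGG
RBM15-203 (chr1:110884871-110884900, plus strand, end of exon 1): ggtcatgatcattgtccgtgGTGCGTCCTA
RBM15-202 (spliced to exon 2): ggtcatgatcattgtccgtgCAAAACTGGT
ZC3H13-202 (chr13:46537967-46537996, minus strand, end of exon 17): acttttagaaaaacccaaagGTAGTTTCAT
ZC3H13-201 (spliced to exon 18): acttttagaaaaacccaaagATGCAGACAA

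WTAP-201 runs 1046 nt past the exon end and its reading frame stops after 1 base of it, so that it encodes 453 nt against 1188 nt in WTAP-202, or 38.1% of the length. RBM15-203 runs on for 422 nt and keeps 98.8% of the coding length, and ZC3H13-202 runs on for 1666 nt and keeps 93.8%. VIRMA-202 runs 452 nt past exon 13 of 24 and keeps 63.3%. Salmon divides the reads that these forms share, so the values of 1 form depend on those of the other.

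**Figure D3:**
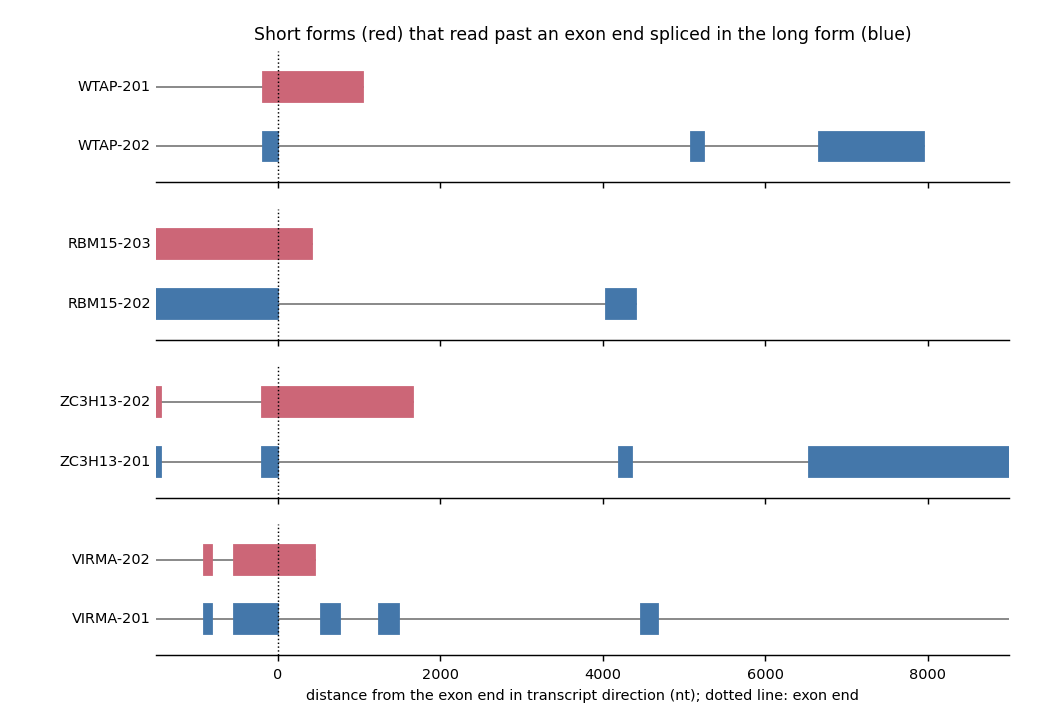
Exons of the short form (red) and the long form (blue) of 4 subunits, placed by distance in nt from the exon end at which they part (dotted line). The short form of WTAP runs 1046 nt past that end and that of ZC3H13 1666 nt, while the long forms skip to later exons.

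The 2 main WTAP forms were both lower after RNAi, and a difference between them did not pass the test of transcript usage given after these values. WTAP-201 stood at 4.88, 5.89 and 4.21 TPM in control nuclear samples and at 1.20, 1.87 and 1.14 TPM after RNAi. Its cytoplasmic level was 9.81 TPM in the control sample and 0.756 and 0.240 TPM after RNAi. WTAP-202 stood at 4.16, 6.19 and 4.66 TPM against 2.78, 3.47 and 3.99 TPM in the nucleus, and at 6.07 TPM against 2.27 and 2.35 TPM in the cytoplasm. WTAP-201 and WTAP-202 were each lower in every RNAi sample than in any control sample of the same fraction, of which the cytoplasm had 1. How many of all transcripts stand apart in this way was not counted, here or for the other forms below. The share of WTAP-201 in all WTAP TPM was 48.6% ± 3.73 (SD, n = 3) in control nuclei and 24.8% ± 5.25 after RNAi, without overlap. This gave p = 0.1 in the two-sided exact permutation test, the smallest p that 3 against 3 samples allow. The retained-intron transcript WTAP-203 took 1.6% to 2.6% of WTAP TPM in control nuclei and 7.9% to 20.2% after RNAi, without overlap, but from only 1.0 to 1.1 and 2.0 to 5.0 counts, and was listed at 0 in all cytoplasmic samples. In the cytoplasm the share of WTAP-201 was 61.8% in the control sample and 25.0% and 9.3% after RNAi.

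Across transcripts, WTAP-201 fell by 4.18 (SE 0.56, edgeR adjusted p = 0.0384) and WTAP-202 by 1.19 (SE 0.24, edgeR adjusted p = 0.0757) in the cytoplasm. There 6 of 28 transcripts of the subunits passed, beside 2.84% of all transcripts tested. In the nucleus edgeR called 0 of 28 transcripts, beside 0% of all 44726, and 7 of the 28 had an unadjusted p under 0.05, beside 9.87% of all. The nuclear differences of WTAP-201 and WTAP-202 were -1.90 (edgeR adjusted p = 0.2) and -0.62 (edgeR adjusted p = 0.281). The test of transcript usage in the nucleus called 0 of 7 subunits with several transcripts, beside 2.27% of all genes. The unadjusted p was 0.0102 for WTAP and 0.0189 for VIRMA in this edgeR test, with adjusted p of 0.223 and 0.293, and the other 5 had an unadjusted p above 0.05. The change in WTAP shares therefore did not pass across all genes.

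**Figure D4:**
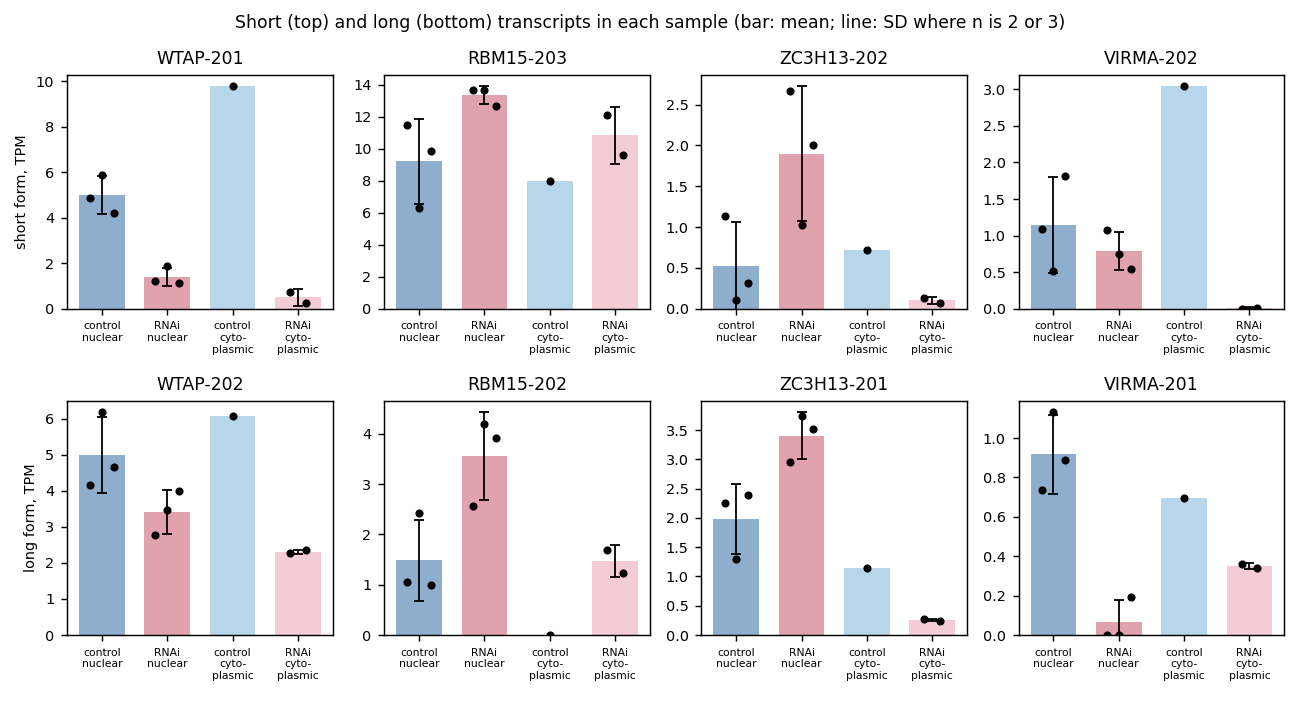
Level in TPM of the short form (top row) and the long form (bottom row) of WTAP, RBM15, ZC3H13 and VIRMA in every sample; points are samples, bars are means and lines are SD. WTAP-201 goes from 4.21 to 5.89 TPM in control nuclei to 1.14 to 1.87 TPM after RNAi, and VIRMA-201 is at 0 in 2 of 3 RNAi nuclear samples.

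VIRMA was spread thinly over its transcripts. VIRMA-204, VIRMA-206 and VIRMA-203, of 460, 574 and 497 nt, took mean shares of 22.1%, 12.1% and 9.8% of its TPM. They had at most 7.1, 14.7 and 6.2 counts in a sample. The full-length VIRMA-201 was estimated at 77.2, 97.1 and 66.7 counts in control nuclei and at 0, 0 and 16.7 counts after RNAi. The retained-intron transcript VIRMA-205 was at 49.4, 52.5 and 63.9 counts in control nuclei and at 49.5, 27.5 and 50.1 counts after RNAi, so these groups overlapped. The short VIRMA-202 was at 66.8, 26.3 and 79.9 counts against 61.6, 28.6 and 27.6 counts. None of these nuclear differences passed, with edgeR adjusted p of 0.368 for VIRMA-201, 0.797 for VIRMA-205 and 0.849 for VIRMA-202. In the cytoplasm VIRMA-202 went from 201.0 counts in the control sample to 0 and 0.8 counts after RNAi (edgeR adjusted p = 0.0465). VIRMA-201 remained detected there, at 78.0 counts in the control sample and 36.0 and 27.7 counts after RNAi (-0.78, edgeR adjusted p = 0.916), and its share of VIRMA TPM was 13.3% against 24.6% and 34.3%. VIRMA-205 was listed at 0 in the control sample and at 6.1 and 6.7 counts after RNAi (edgeR adjusted p = 0.0588). No fold is given against these values at the limit of detection.

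Of the 3 ZC3H13 transcripts shown here, only ZC3H13-201 passed the test in the cytoplasm. ZC3H13-202 (-2.57, edgeR adjusted p = 0.402) and ZC3H13-203 (-0.47, edgeR adjusted p = 0.857) did not pass, the latter at 11.8 counts against 5.6 and 6.3. ZC3H13-201, which encodes the whole protein, was estimated at 293.5, 138.9 and 222.0 counts in control nuclei and at 357.6, 299.9 and 374.7 counts after RNAi. In the cytoplasm it stood at 157.1 counts in the control sample and at 33.5 and 24.8 counts after RNAi. It fell by 1.93 there (SE 0.43, edgeR adjusted p = 0.0958). The nuclear difference of 0.66 did not pass (edgeR adjusted p = 0.506). After RNAi the nuclear level exceeded the cytoplasmic one for ZC3H13-201 by 3.35 (edgeR adjusted p = 0.000949), for ZC3H13-202 by 3.85 (edgeR adjusted p = 0.0356) and for the retained-intron transcript ZC3H13-203 by 1.87 (edgeR adjusted p = 0.0374). They were 3 of the 11 transcripts of the subunits that passed this comparison, beside 43.6% of all transcripts. ZC3H13-203, of 695 nt, took a mean of 47.1% of the TPM of the gene but only 5.6 to 29.2 counts in a sample.

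RBM15 was carried mainly by its unspliced form, RBM15-203, with a mean share of 70.9% of TPM. It stood at 603.0, 269.8 and 368.7 counts in control nuclei and at 669.0, 443.3 and 546.7 counts after RNAi. Of the spliced forms, RBM15-202 stood at 53.7, 102.0 and 36.5 counts against 123.3, 133.5 and 165.9 counts, with no overlap. The other spliced form, RBM15-201, with a larger mean share of 17.2% against 11.9%, stood at 141.0, 225.2 and 113.8 counts against 152.7, 139.2 and 193.4 counts, and these overlapped. None of the 3 forms passed in the nucleus, with edgeR adjusted p of 0.702 for RBM15-203, 0.302 for RBM15-202 and 0.976 for RBM15-201. In the cytoplasm RBM15-202 was listed at 0 in the control sample and at 82.0 and 49.7 counts after RNAi (edgeR adjusted p = 0.0325). Spliced RBM15 RNA was present in all of these samples as RBM15-201, at 123.1 counts against 109.8 and 101.9 (edgeR adjusted p = 0.775), and RBM15-203 was at 447.9 counts against 596.0 and 390.4.

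METTL3 RNA differed in makeup between the fractions in both arms. Protein-coding transcripts held 13.2%, 35.6% and 21.5% of METTL3 TPM in control nuclei and 18.2%, 19.8% and 27.4% in RNAi nuclei. In the cytoplasm they held 47.0% in the control sample and 46.9% and 57.5% after RNAi. The nuclear and cytoplasmic samples did not overlap, and within the nucleus the arms did. The rest belonged to transcripts annotated with a retained intron, as targets of nonsense-mediated decay, or without a reading frame, which took 64.4% to 86.8% in nuclear and 42.5% to 53.1% in cytoplasmic samples. Retained-intron transcripts overlapped between the fractions, at 19.8% to 48.7% in nuclear and 34.1% to 38.7% in cytoplasmic samples. Decay targets took 18.2% to 30.6% in nuclear and at most 6.4% in cytoplasmic samples. Transcripts without a reading frame took 17.0% to 34.6% and 8.4% to 9.1%. These were METTL3-202, METTL3-213 and METTL3-214, of only 560, 563 and 545 nt. Each had at most 31.3 counts in a nuclear and 5.9 in a cytoplasmic sample, so their shares rest on few counts. Over protein-coding genes tested, the median share outside coding transcripts was 15.1% to 18.5% in nuclear samples and 3.53% to 5.95% in cytoplasmic ones, so it was higher in the nucleus there too.

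**Figure D5:**
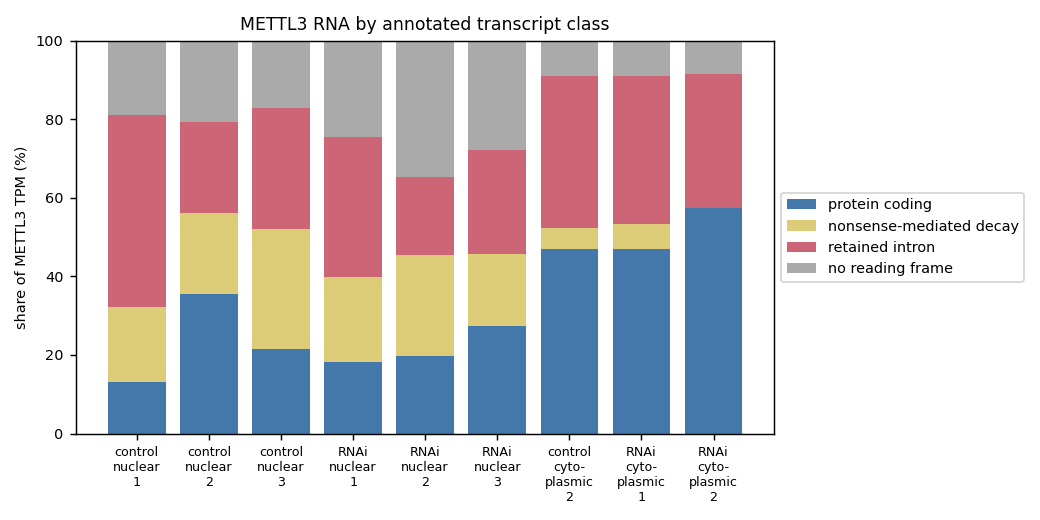
Share of METTL3 TPM in percent by annotated transcript class in each of the 9 samples. Protein-coding transcripts reach at most 35.6% in a nuclear sample and at least 46.9% in a cytoplasmic one.

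The full-length METTL3-201 stood at 3.33, 9.99 and 4.55 TPM in control nuclei, at 5.43, 5.15 and 8.81 TPM in RNAi nuclei, and at 10.4, 8.05 and 8.84 TPM in the control and the 2 RNAi cytoplasmic samples. It did not pass between fractions, at -0.96 in control (edgeR adjusted p = 0.205) and -0.74 after RNAi (edgeR adjusted p = 0.197). After RNAi the nonsense-mediated decay form METTL3-206 was higher in the nucleus by 4.11 (SE 1.02, edgeR adjusted p = 0.018). METTL3-205, with a retained intron, was at 42.2, 66.9 and 46.5 counts in control nuclei and at 0 in the control cytoplasmic sample. METTL3-209, also with a retained intron and a larger mean share (15.8%), did not pass between fractions. The difference was -0.96 in control (edgeR adjusted p = 0.586) and -0.62 after RNAi (edgeR adjusted p = 0.652). METTL3-209 took 2.2% to 23.3% of METTL3 TPM in nuclear and 24.0% to 27.1% in cytoplasmic samples, while its level in TPM overlapped between the fractions. In all, 5 METTL3 transcripts passed as higher in the nucleus after RNAi, METTL3-202, METTL3-205, METTL3-206, METTL3-211 and METTL3-213, and 2 in control cells, METTL3-205 and METTL3-212. Over all transcripts 28.6% passed as higher in the nucleus after RNAi and 21% in control cells. In control cells 5 of 28 transcripts of the subunits passed, beside 32% of all transcripts. METTL3 overlaps TOX4 on the opposite strand over 1043 nt, and WTAP lies within the longest annotated form of SOD2 on the opposite strand, over 30735 nt. Whether the quantification used strand is not given in the sources used here.

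Other genes of the m6A pathway were taken as 3 lists. The first held 6 genes: the other RNA methyltransferases METTL16, METTL5, ZCCHC4, PCIF1 and METTL4, and the partner protein TRMT112. Of these, 0 passed in the nucleus with edgeR, beside 4.89% of all genes. In the cytoplasm 2 passed, a share near the 24.6% of all genes. METTL5, which methylates ribosomal RNA, fell by 1.04, and PCIF1, which methylates the first base after the cap, rose by 0.55. The median difference of the list was 0.01 in the nucleus and 0.12 in the cytoplasm, beside -0.001 and 0.011 over all genes. The PCIF1 ratio fell by 0.64 (edgeR adjusted p = 0.0218), opposite in sign to the 3 subunits that passed. It was the 1 of 6 that passed in the ratio, beside 7.87% lowered over all genes.

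Of 12 reader and eraser genes, 0 passed in the nucleus with edgeR, beside 4.89% of all genes. In the cytoplasm 5 passed, 4 lower and 1 higher, beside 24.6% of all genes, 14.2% lower and 10.4% higher. The median log2 differences of the list were 0.12 in the nucleus and 0.01 in the cytoplasm, beside -0.001 and 0.011 over all genes. YTHDC2, an RNA helicase reader, fell by 1.40 (edgeR adjusted p = 0.0034), HNRNPA2B1 by 0.66, IGF2BP3 by 0.58 and the nuclear reader YTHDC1 by 0.51, while the demethylase ALKBH5 rose by 0.59. The first 4 also had raised ratios, by 1.74 for YTHDC2, 0.51 for HNRNPA2B1, 0.83 for IGF2BP3 and 0.58 for YTHDC1. These were the 4 of 12 that passed in the ratio, beside 10.4% raised and 7.87% lowered over all genes. The median ratio difference of the list was 0.12, beside -0.047 over all genes. Of 5 tested genes co-purified with WTAP or related to the subunits, 0 passed in the nucleus with edgeR, beside 4.89% of all genes, and 3 fell in the cytoplasm, beside 14.2% of all genes. Their median log2 differences were 0.02 in the nucleus and -0.73 in the cytoplasm. BCLAF1, a splicing-related protein, fell by 1.80, SPEN, a relative of RBM15, by 0.88 and FXR1 by 0.73. With a list median of 0.75, the ratio passed as raised for 2 of 5, beside 10.4% of all genes. The ratios of BCLAF1 and SPEN rose by 2.23 and 1.00. Their nuclear differences were 0.43 for BCLAF1, 0.12 for SPEN and 0.02 for FXR1, which did not pass.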

How the data were processed

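RNA from nuclear and cytoplasmic fractions was made into Lexogen SENSE mRNA libraries. The authors trimmed 9 nt from read 1 and 6 nt from read 2 with cutadapt and ran salmon against Ensembl version 75 transcripts of hg19. They deposited estimated counts per transcript, TPM, and transcript and effective lengths for each sample; the salmon version is not given in the sources used here. Samples were grouped by siRNA and fraction from their labels. Of 215170 transcripts, 183122 matched GENCODE version 44 lifted to GRCh37 by identifier, carrying 83.07% to 88.31% of counts; a transcript without a match was not used.

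Estimated counts were summed per gene, rounded and fitted with edgeR 4.0.16 in R 4.3.3 (TMM, quasi-likelihood test, 4 groups, all 9 samples, at least 10 counts in at least 3 samples). Calls needed a log2 fold change beyond 0.5 and an adjusted p under 0.1. The biological coefficient of variation was 0.138 with 5 residual degrees of freedom. The SE of a fold change is its size over the square root of F. Transcripts were fitted likewise, and usage in the nucleus was tested with diffSpliceDGE. The code was tested on simulated counts. Genes named are the 8 subunits, their transcripts with a mean share of at least 5% or called, fixed markers, and called genes of 3 fixed lists. The members and lists were chosen with earlier results of these data known. Alternatives were DESeq2 1.42.0, other scalings and filters, a length offset, limma 3.58.1 on log2(TPM + 1) and log2(TPM + 0.1), a replicate block, an adjusted p of 0.05, nuclear samples only, and the omission of 1 sample at a time, the lone control cytoplasmic sample always kept. An item that these rules select is not reported here.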

Additional observations from a re-analysis of the deposited data

Results flagged for a closer look

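For 3 of 8 subunits the RNAi effect in the nucleus differed from that in the cytoplasm by edgeR's test of the difference itself. Over all genes 18.2% passed this test in either direction and 10.4% as raised. The nuclear/cytoplasmic ratio rose by 0.89 on the log2 scale for WTAP, by 0.83 for METTL14 and by 2.85 for ZC3H13. WTAP fell in both fractions, METTL14 fell in the cytoplasm, and ZC3H13 rose in the nucleus and fell in the cytoplasm. All 3 values rest on 1 control cytoplasmic sample. The METTL14 call held in only 1 of 8 fits with a sample left out, while those of WTAP and ZC3H13 held in all 8.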

How the results depend on the processing

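Of the subunits called, WTAP in both fractions and in the ratio, VIRMA, RBM15 and ZC3H13 in the cytoplasm and ZC3H13 in the ratio were called in every fit with a sample left out. The number of subunits called in the nucleus was 4, and became 2 at an adjusted p of 0.05, 1 with the length offset and 0 with limma at either pseudocount; with a sample left out it ranged from 1 to 5. In the cytoplasm it was 5, and 3 with limma at either pseudocount. Nucleus against cytoplasm in control cells it was 2, and 1 with limma at either pseudocount, with 2 to 4 when a sample was left out. After RNAi it was 2, and 4 with at least 10 counts in every sample or no filter, and 5 with library size only or limma at either pseudocount, with 2 to 4 when a sample was left out. The usage count of 0 became 1, VIRMA, without RNAi nuclear replicate 3. The VIRMA call between fractions after RNAi was lost with the length offset, where WTAP, METTL3 and ZC3H13 were called. The nuclear count was 5, with RBM15 added, with at least 10 counts in every sample, DESeq2 size factors, the DESeq2 Wald test and library size only. The cause of these shifts was not tested. Scaling by library size only put the median of all genes at -0.236 in the cytoplasm and at 0.233 in the ratio, from 0.011 and -0.047. With it, calls over all genes went from 400 higher and 392 lower to 332 and 158 in the nucleus, from 1678 and 2305 to 431 and 3200 in the cytoplasm, and from 1680 and 1273 to 2236 and 164 in the ratio. Between the other settings all-gene calls ranged from 22 to 1306 in the nucleus, 1495 to 4719 in the cytoplasm and 1074 to 4038 in the ratio. Single values that turned sign, none of them called, were CBLL1 in the cytoplasm (-0.07 with library size only, -0.1 with limma at either pseudocount), METTL14 between fractions after RNAi (0 with the length offset), RBM15 in the ratio (0.03 and 0.04 with limma), VIRMA between fractions in control cells (0 and 0.01 with limma) and ZC3H13 between fractions in control cells (0 with the replicate block). Same-numbered samples deviated together only weakly (correlations of 0.185, 0.11 and 0.042 for numbers 1, 2 and 3), so the numbers were not taken to pair them. With the replicate block 4 subunits were called in the nucleus, 5 in the cytoplasm and 4 in the ratio, where VIRMA was added to WTAP, METTL14 and ZC3H13. Low counts limit METTL14, VIRMA and single transcripts.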

Other observations

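Summed over the subunits without RBM15B, the level was 79.0, 84.0 and 76.3 TPM in control nuclei and 93.3, 95.3 and 97.7 TPM in RNAi nuclei. In the cytoplasm it was 85.0 TPM in the control sample and 65.6 and 56.6 TPM after RNAi. The RNAi samples were thus above the control samples in the nucleus and below the control sample in the cytoplasm. These sums are not TMM-scaled. On log2(TPM + 1) the median difference of all genes was 0.053 in the nucleus and -0.158 in the cytoplasm, from -0.001 and 0.011 with TMM. The part of this scale shift in the sums was not tested.

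Among 8778 other tested genes with a mean log2 CPM of at least 3, those whose log2 CPM followed WTAP closely over the 9 samples included BUB1, a mitotic checkpoint kinase (Pearson's r 0.953), and POLA1, a DNA polymerase subunit (0.931). Those nearest to VIRMA were GIGYF2 (0.96), GGH (0.952) and PWWP2A (0.952). These are descriptions across samples that fall into 4 groups and share their libraries. BUB1 went from 50.6, 54.2 and 52.7 CPM in control nuclei to 40.1, 42.5 and 39.7 CPM after RNAi.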
